A study of Homo sapiens with 15 samples.

Results

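The SCC15 oral cancer line was compared with the normal oral epithelial line OKF6 at the level of messenger RNA, using the 3 OKF6 libraries and the 3 libraries labelled SCC15 +YBX1, which are 6 of the 15 libraries of the series. OKF6 cells were grown in keratinocyte serum-free medium with bovine pituitary extract, EGF and calcium chloride. SCC15 cells were grown in DMEM with fetal bovine serum and carried Cas9 together with a doxycycline-inducible guide against YBX1, delivered by lentivirus and sorted by fluorescence, and the +YBX1 arm received no doxycycline. The labels give 3 days for the OKF6 and the SCC15 libraries alike. No construct is stated for OKF6. Line, medium and construct therefore differ together and cannot be told apart in any value given here. The SCC25 +YBX1 libraries, a further 3 from an oral cancer line with the same kind of construct but grown in the keratinocyte medium of OKF6, are given beside some values, as are 3 SCC15 -YBX1 libraries in which doxycycline at 1 µg/ml had induced the guide. Nothing in the labels says that the replicates of a line came from separate cultures, so that the p-values measure the spread between these libraries, which may be technical.

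Oral keratinocytes are stratified epithelial cells. They are held together by cadherins and desmosomes, anchored to the basement membrane by hemidesmosomes and laminin-332, filled with keratin filaments, and kept in this state by transcription factors such as p63 and the Grainyhead-like family. In epithelial-mesenchymal transition (EMT), repressors such as ZEB1, ZEB2, SNAI1 and SNAI2 switch off E-cadherin and other epithelial genes while N-cadherin, vimentin and matrix genes come on. In partial EMT, described in head and neck cancer, some mesenchymal and matrix genes are expressed by cells that keep their epithelial programme.

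Counted reads lay between 4075290 and 6118501 per library in these 6 libraries, and 12995 genes were tested. Levels are log2 CPM, the log2 of reads scaled by library size, and each difference is SCC15 minus OKF6 on the log2 scale, so that 1 unit is a doubling. A gene was called when its adjusted p was under 0.05 (limma, Benjamini-Hochberg over all genes). OKF6 replicate 1 stood apart from the others of its group. Its counts differed from those of replicates 2 and 3 with a chi-square of 80.9 and 79.3 per degree of freedom, against 26.1 between replicates 2 and 3. In all, 6534 genes (50.3%) passed, and SCC15 was above OKF6 for 3497 of them (26.9% of genes tested) and below it for 3037 (23.4%). Without OKF6 replicate 1 the calls numbered 7434, of which 4093 were higher and 3341 lower. Where a line had no read of a gene in any library, a lower bound of the fold is given against 3 reads per library, and where it had a few reads in all, the ratio of pooled levels is given with its exact 95% interval, which covers counting error only. Differences of at least 4 log2 units made up 1061 of the higher calls and 782 of the lower ones, and differences of at least 8 units made up 67 and 187.

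The labelled cell type was checked first against 8 markers of oral keratinocytes. In OKF6 all 8 were abundant, and in SCC25 +YBX1 all 8 were present, whereas the libraries labelled SCC15 held close to none of KRT5, KRT14, TP63, CDH1 and DSG3. KRT5, the basal keratin, stood at 12.52, 13.13 and 13.40 log2 CPM in OKF6 and at 1.497, -1.25 and 3.04 in SCC15, which were 15, 2 and 53 reads against 30682, 39803 and 64015. TP63, the gene of the basal cell regulator p63, had 944, 461 and 606 reads in OKF6 and 0, 0 and 1 in SCC15, a ratio of 2312 (414 to 91355). The groups were far apart for both genes, and SCC25 had 1058, 727 and 475 TP63 reads. DSP and ITGA6 were lower but clearly present in the libraries labelled SCC15, at means of 6.53 and 3.29 log2 CPM. These markers go against an epithelial keratinocyte identity for the libraries labelled SCC15, and they are called by their label here. As a description, the share of the OKF6 level was also taken over 37 keratinocyte-list genes above 256 CPM in OKF6, a set chosen after values were seen and through the line where the genes are high, which lowers the share in any other line. The median gene stood at 0.0621%, 0.0286% and 0.189% of its OKF6 level in SCC15 replicates 1 to 3, and at between 35.9% and 59.0% in the SCC25 libraries. The SCC15 -YBX1 libraries stood at between 0.0306% and 0.0782%. In bulk RNA fewer cells of a type and less RNA per cell cannot be told apart. The study states that its lines were authenticated by short tandem repeat profiling.

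**Figure D1:**
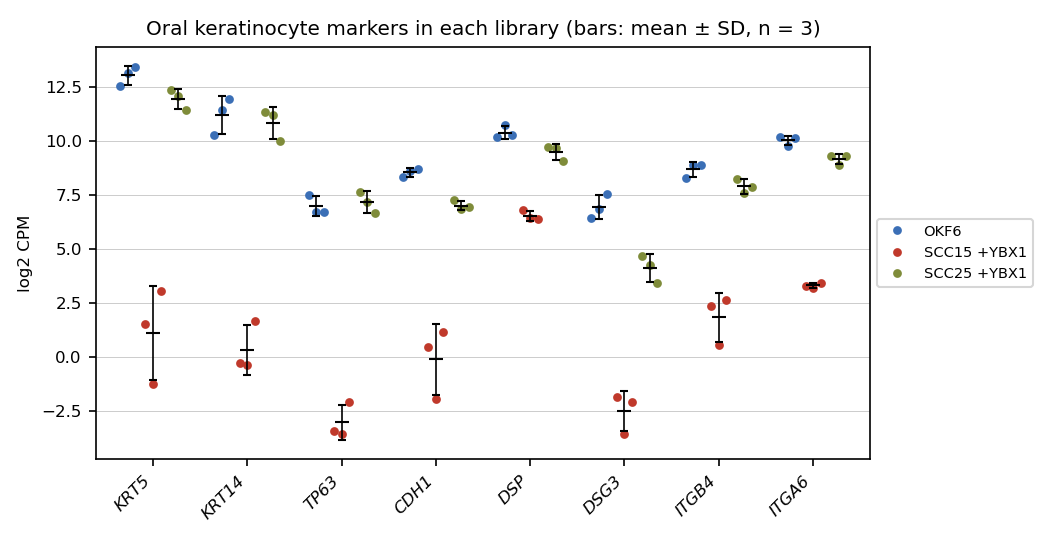
Level of 8 oral keratinocyte markers (log2 CPM, vertical axis) in each of the 3 libraries of OKF6, SCC15 +YBX1 and SCC25 +YBX1, with mean ± SD in black. KRT5, KRT14, TP63, CDH1 and DSG3 lie below 3.1 in every SCC15 library and above 3.3 in every other library, while DSP lies near 6.5 in SCC15.

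Markers of other cell types were low in both lines. Of 10 fibroblast markers 2 were in the table, COL1A1 and LUM. Their summed level was 11.3 to 30.2 CPM in SCC15 and 29.1 to 44.5 CPM in OKF6. The OKF6 sum came from COL1A1 alone, which did not pass the threshold. LUM was called higher in SCC15, with 15, 2 and 13 reads against 0 in each OKF6 library. Of 13 leukocyte markers 4 were in the table, summing to 3.54 to 6.92 CPM in SCC15 and 12.2 to 30.01 CPM in OKF6. The macrophage marker CD68 had 6, 2 and 1 reads in SCC15 against 123, 36 and 149 in OKF6, although 79.1% of the 75-base pieces of its transcript end also lie in another annotated locus. One endothelial marker of 8 was in the table and had 0 CPM in SCC15, and 1 melanocyte marker of 7, MITF, summed to 6.41 to 8.47 CPM in SCC15 and 0.451 to 2.87 CPM in OKF6.

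YBX1, the cold-shock protein that the guide targets, was itself lower in SCC15 without doxycycline than in OKF6. It stood at 6.76, 8.15 and 8.37 log2 CPM in OKF6 and at 5.11, 5.56 and 6.00 in SCC15, a difference of -2.21 ± 0.39 (SE, adjusted p = 0.00071). The groups did not overlap. SCC25 had a mean of 6.55, not past the threshold against SCC15 (adjusted p = 0.058), and the SCC15 -YBX1 libraries had a mean of 3.40.

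**Figure D2:**
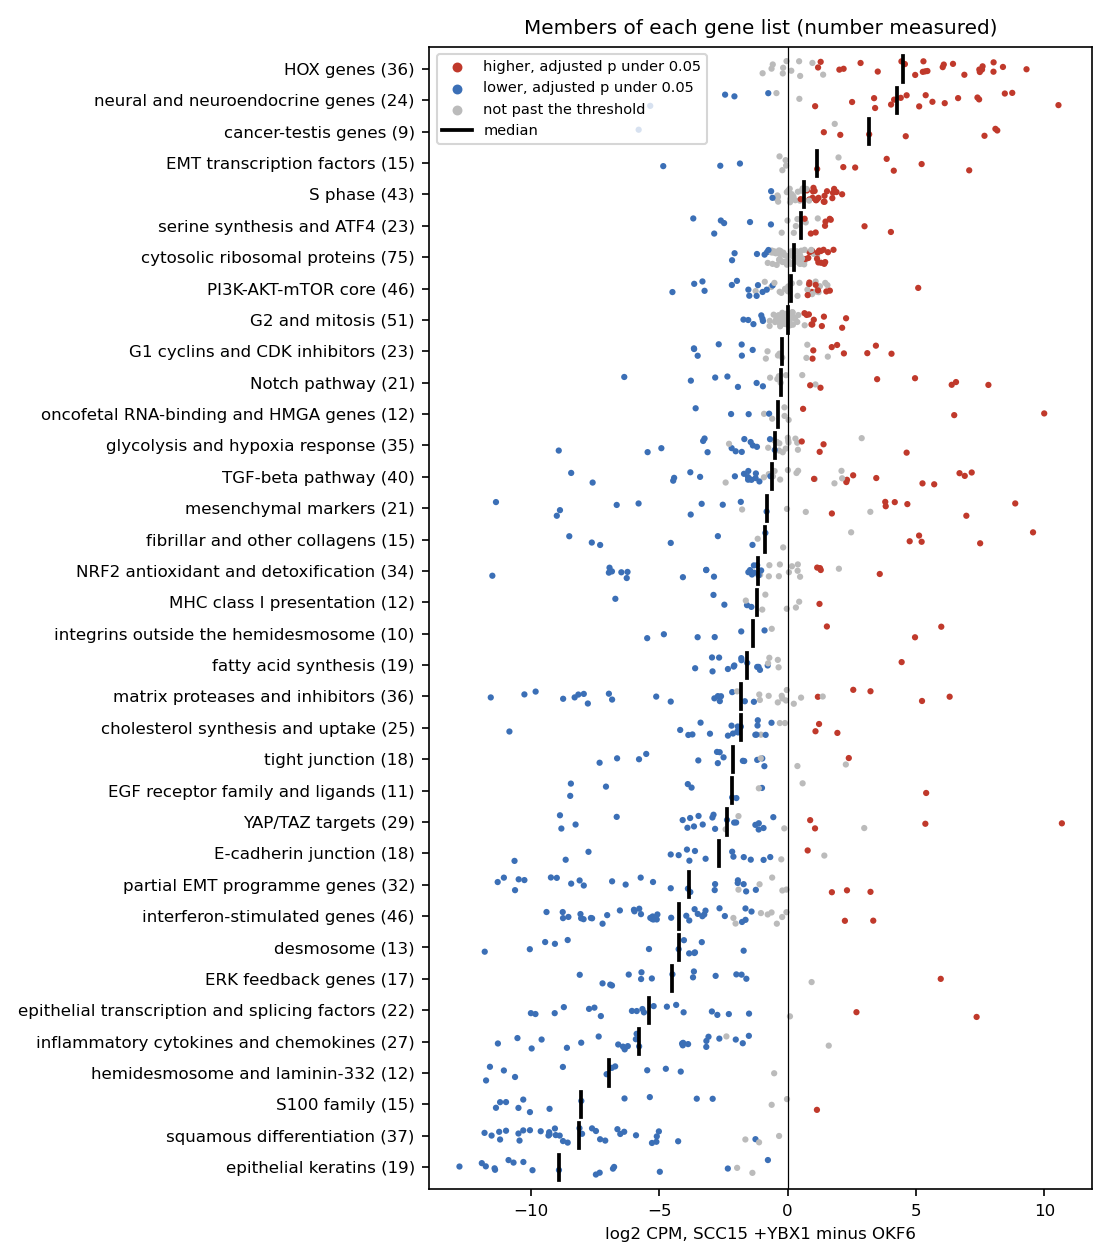
Difference in log2 CPM (SCC15 +YBX1 minus OKF6, horizontal axis) of every measured member of 36 gene lists, coloured by call, with the list median as a black bar and the number measured in brackets. Keratin, squamous, S100 and hemidesmosome lists have medians below -6, and the HOX and neural lists have medians above 4.

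Keratin filament genes were lower with few exceptions. Of 19 epithelial keratins measured, 17 were lower and 0 higher, with a median of -8.91, or -6.23 when genes at or under 3 reads in every SCC15 library are set to 3 reads. The median of all genes was 0.10, and 26.9% of them were higher and 23.4% lower. KRT6A, a keratin of activated and oral epithelium, had 71723, 36285 and 75200 reads in OKF6 and 22, 0 and 75 in SCC15, and at -12.79 ± 1.36 it showed the largest fall of all named genes. KRT14, the partner of KRT5, stood at 10.24, 11.42 and 11.95 log2 CPM in OKF6 and at -0.29, -0.40 and 1.66 in SCC15 (-10.88 ± 0.60, adjusted p = 2.7e-07). Among the simple epithelial keratins, KRT19 stood at 10.05, 10.53 and 10.40 in OKF6 and at -1.14, -3.57 and 0.39 in SCC15. KRT18 was lower by a smaller amount, from 8.18, 7.99 and 8.11 to 5.67, 5.84 and 5.76 (-2.33 ± 0.18), and its partner KRT8 did not pass the threshold at -1.37 (adjusted p = 0.061), though it did without OKF6 replicate 1 (-1.96) or SCC15 replicate 1 (-1.80). Both were lower in SCC15 than in SCC25 (-3.48 and -4.34).

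Desmosomes are the spot junctions that tie the keratin filaments of neighbouring cells together. All 13 measured members were lower, with a median of -4.25 (-4.04 with bounds), where 23.4% of all genes were lower. The cadherin DSG3 had 452, 508 and 1086 reads in OKF6 and 1, 0 and 1 in SCC15, a ratio of 1176 (325 to 9717). PKP1, a plakophilin of the desmosomal plaque, differed by -11.80 ± 0.67, and the plakin EVPL had no read in any SCC15 library. DSP, which links the plaque to keratins, remained well above the floor, with 10.16, 10.71 and 10.24 log2 CPM in OKF6 and 6.79, 6.44 and 6.35 in SCC15 (-3.84 ± 0.24). PERP, a tetraspan membrane protein of the junction, likewise remained at 6.50, 6.88 and 6.53 log2 CPM in SCC15 (-4.25 ± 0.20).

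In the adherens junction, 15 of 18 measured members were lower and 1 was higher (median -2.68), where 23.4% of all genes were lower and 26.9% higher. CDH1, the gene of E-cadherin, had 1653, 1700 and 2446 reads in OKF6 and 7, 1 and 14 in SCC15 (-8.65 ± 0.62, adjusted p = 1.1e-06). P-cadherin, CDH3, differed by -7.76 ± 0.36, and the epithelial surface protein EPCAM by -3.92. The nectin NECTIN2 was the higher member (0.78). Of 18 tight junction genes, 14 were lower and 1 was higher, with a median of -2.12. The claudins CLDN7 and CLDN4 differed by -5.79 and -6.65 (CLDN4 on 3 reads in SCC15, a ratio of 158 with an interval of 53.8 to 771), the adhesion protein F11R by -2.75 and the polarity protein CRB3 by -3.48. CXADR, an adhesion molecule that is also the coxsackievirus and adenovirus receptor, was the higher member (2.38).

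Genes of anchorage to the basement membrane were lower too, where 23.4% of all genes were lower and 26.9% higher. Of 12 hemidesmosome and laminin-332 genes, 11 were lower and 0 higher (median -6.95), with CD151 at -0.53 not past the threshold, or lower by a call at -0.88 without OKF6 replicate 1. The laminin-332 chains LAMA3 and LAMB3 differed by -8.76 and -11.06. COL17A1, the transmembrane collagen of the hemidesmosome, had 1305, 3552 and 3681 reads in OKF6 and 0, 0 and 3 in SCC15, a ratio of 3272 (1119 to 15868). The integrin pair ITGA6 and ITGB4, which binds laminin-332, differed by -6.72 ± 0.19 and -6.85 ± 0.46. Among 10 integrins outside the hemidesmosome, 6 were lower, among them the collagen receptor ITGA2 (-4.82), the fibronectin receptor ITGA5 (-2.84) and ITGB1 (-3.51), the common beta chain. ITGA4, ITGA7 and ITGAE were higher. ITGA4 and ITGA7 had 1 read each in all OKF6 libraries, with ratios of 67.9 (11.8 to 2714) and 137 (24.3 to 5463), and ITGAE differed by 1.53.

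Squamous differentiation genes build the cornified envelope of the upper epithelial layers. Their counts stand beside the 23.4% of all genes that were lower and the 26.9% that were higher. Of 37 measured, 34 were lower and 0 higher, with a median of -8.11 (-6.63 with bounds), and 20 were at or under 3 reads in every SCC15 library. IVL, the envelope protein involucrin, varied widely within OKF6 (28, 70 and 483 reads) and had 0, 1 and 0 reads in SCC15. SPRR1B, a cross-linked envelope protein, differed by -11.81 ± 0.79. The S100 calcium-binding proteins, many of them made by differentiating or inflamed epithelium, were lower in 12 of 15 cases. S100A2 went from 12.04, 12.62 and 12.88 log2 CPM to 1.59, -0.11 and 3.15, and S100A9 from 246, 2756 and 6514 reads to 1, 1 and 1. The 1 higher gene of that list, S100PBP (1.14), encodes a binding partner of an S100 protein and not a family member.

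The regulators of epithelial identity were lower as well. Of 22 epithelial transcription and splicing factors, 19 were lower and 2 higher, with a median of -5.41 (-4.20 with bounds). Of all genes 23.4% were lower and 26.9% higher. GRHL2 and GRHL3, Grainyhead-like factors that activate junction genes, had 98, 73 and 212 and 35, 39 and 52 reads in OKF6, and 0, 0 and 1 read each in SCC15. ESRP1 and ESRP2, the splicing regulators that produce epithelial isoforms, differed by -8.72 ± 0.80 and -7.28 ± 0.38. EHF, an epithelial ETS factor, had 804, 298 and 761 reads against 0, 0 and 1. Both higher members are factors of other epithelia. CDX2, a regulator of intestinal epithelium, had 0, 0 and 1 read in OKF6 and 106, 158 and 152 in SCC15, a ratio of 362 (64.6 to 14327), and FOXE1, a thyroid and foregut factor, was higher by 2.68, a call that ended (adjusted p between 0.099 and 0.14) when any library other than OKF6 replicate 1 was left out.

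EMT transcription factors differed in both directions. Of 15 measured, 7 were higher, 3 lower and 5 not past the threshold, with a median of 1.15. Over all genes 26.9% were higher and 23.4% lower. ZEB1, a repressor of E-cadherin, stood at -1.80, -3.15 and -3.57 log2 CPM in OKF6 and at 4.48, 3.78 and 4.45 in SCC15, or 1, 0 and 0 reads against 122, 81 and 141 (a ratio of 299 with an interval of 53.4 to 11853, adjusted p = 2.2e-06). ZEB2 had 17, 15 and 19 reads in SCC15 and at most 1 in an OKF6 library. ZEB1 was also higher than in SCC25, by 3.55 (adjusted p = 0.00043), and ZEB2 by 3.18. SNAI1 was higher by 2.63 ± 0.88 (adjusted p = 0.029) on no more than 11 reads a library, and leaving out any library other than OKF6 replicate 1 ended that call, with adjusted p between 0.051 and 0.10. SNAI2 differed the other way, with 5.94, 7.57 and 7.54 in OKF6 and 4.92, 4.23 and 4.01 in SCC15 (-2.63 ± 0.43), and TWIST2 had no read in SCC15. For TWIST1 the OKF6 libraries held 33, 0 and 30 reads and the SCC15 libraries 40, 27 and 43, and the difference of 1.98 ± 1.25 did not pass the threshold. FOXC1, a mesoderm factor, stood at 3.82, 4.90 and 4.45 in OKF6 and at 8.74, 8.57 and 8.25 in SCC15 (4.13 ± 0.27), and the goosecoid gene GSC, with no read in OKF6, was at least 5.45-fold higher.

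**Figure D3:**
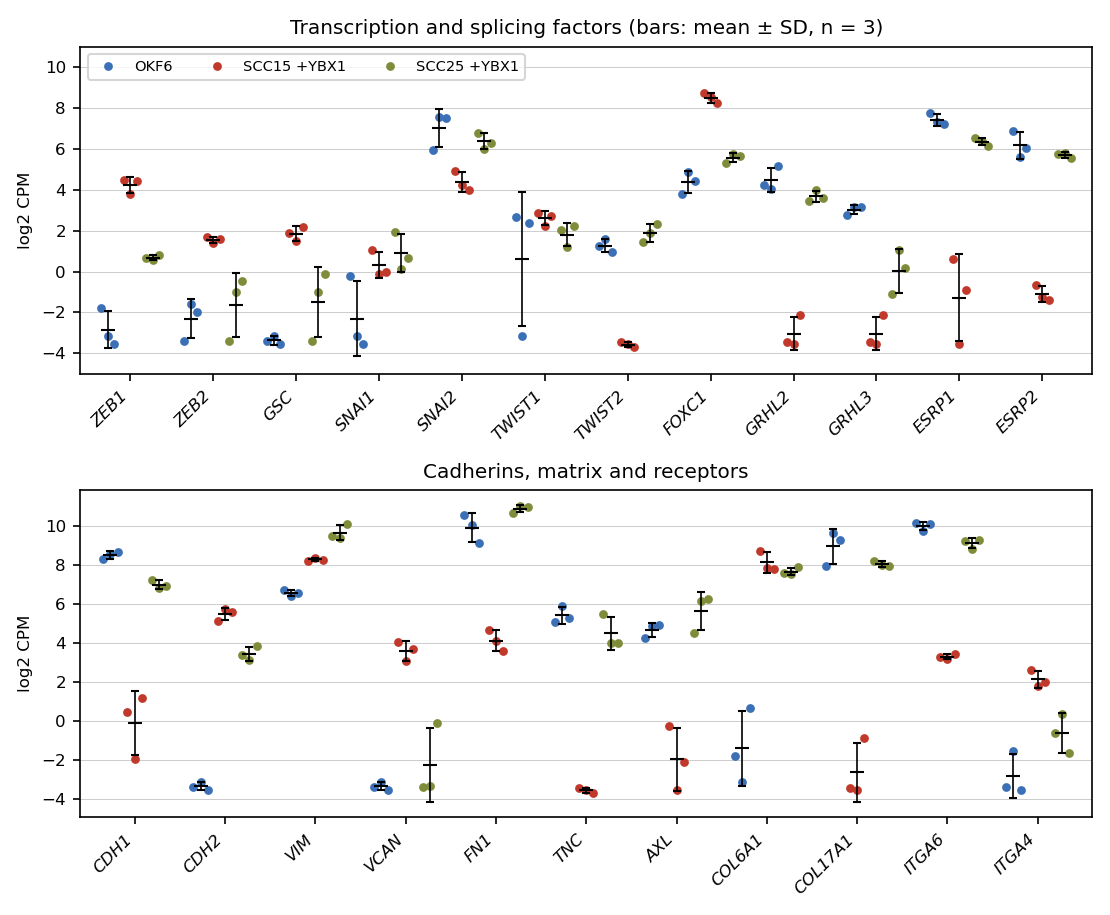
Levels (log2 CPM) of EMT and epithelial regulators (upper panel) and of cadherins, matrix genes and receptors (lower panel) in each library of OKF6, SCC15 +YBX1 and SCC25 +YBX1, with mean ± SD (n = 3). ZEB1 and CDH2 are at or under 1 read in every OKF6 library and highest in SCC15, whereas FN1, TNC and AXL are lower in SCC15 than in both other lines.

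Mesenchymal markers did not move as a block. Of 21 measured, 7 were higher and 10 lower, with a median of -0.82, where 26.9% of all genes were higher and 23.4% lower. N-cadherin, CDH2, had 0 reads in each OKF6 library and 195, 323 and 310 in SCC15, at least 68.0-fold higher. VIM, the intermediate filament of mesenchymal cells, rose from 6.75, 6.41 and 6.55 log2 CPM to 8.23, 8.37 and 8.28 (1.72 ± 0.21), and without overlap. In SCC25 vimentin was higher still, by 1.38 against SCC15 (adjusted p = 0.00035). The proteoglycan VCAN was at least 18.6-fold higher, and the smooth muscle actin ACTA2 higher by 4.66 ± 0.87. In the other direction, fibronectin, FN1, stood at 10.60, 10.05 and 9.14 in OKF6 and at 4.69, 4.10 and 3.58 in SCC15 (-5.81 ± 0.37, adjusted p = 5.1e-07). Tenascin C, TNC, had 0 reads in each SCC15 library, the surface enzyme NT5E had 681, 353 and 729 reads against 1, 0 and 3, and AXL, a receptor tyrosine kinase, had 98, 129 and 178 reads in OKF6 against 4, 0 and 1. S100A4 showed no difference that could be detected (-0.03 ± 0.78).

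Among 15 collagens, 5 were higher and 7 lower, where 26.9% of all genes were higher and 23.4% lower. COL6A1 and COL6A2, chains of the pericellular collagen VI, were higher. COL6A1 had 1, 0 and 9 reads in OKF6 and 2354, 1362 and 1474 in SCC15 (9.56 ± 0.74), and COL6A2 0, 0 and 1 against 167, 127 and 160. COL12A1 differed by -7.31, and COL8A1 had 87, 391 and 344 reads against 0, 0 and 1. COL1A1, of fibrillar collagen I, did not pass the threshold (-1.17 ± 0.51, adjusted p = 0.078), though it did without SCC15 replicate 1 (-1.57, adjusted p = 0.040).

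The partial EMT programme of head and neck cancer was largely lower. Of its 32 measured genes, 24 were lower and 3 higher (MMP2, VIM and LTBP1), with a median of -3.84 (-3.32 with bounds). Against OKF6, 23.4% of all genes were lower and 26.9% higher. TGFBI, a TGF-beta-induced matrix protein, stood at 10.68, 10.31 and 10.21 log2 CPM in OKF6 and at -0.29, -3.57 and 1.16 in SCC15. PDPN, podoplanin, was the mildest of the named members, from 7.76, 6.87 and 7.80 to 5.83, 5.81 and 5.64 (-1.72 ± 0.29). Against SCC25 30 of the 32 genes were lower in SCC15 and 0 higher, where 23.6% of all genes were lower in that comparison and 43.6% differed in either direction. The SCC15 libraries are shared with the comparison against OKF6. Matrix proteases and their inhibitors were lower in 19 of 36 cases and higher in 5. PLAU, the urokinase that activates plasminogen, differed by -7.95 ± 0.54, MMP9 had 426, 1474 and 860 reads against 0, 1 and 1 and MMP14 244, 247 and 280 against 1, 0 and 1, and the inhibitor SERPINB5 differed by -11.57. MMP2 was higher by 3.23, and MMP11, with no read in OKF6, was at least 11.9-fold higher.

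Genes of the EGF receptor pathway were lower among ligands, receptors and genes of the ERK feedback list alike. Of 11 receptor family members, ligands and regulators, 8 were lower and 1 higher (median -2.16), where 23.4% of all genes were lower and 26.9% higher. EGFR stood at 6.00, 7.67 and 5.80 log2 CPM in OKF6 and at 3.02, 2.21 and 2.57 in SCC15 (-3.89 ± 0.43). Its ligand TGFA had 632, 655 and 1200 reads against 4, 5 and 12, EREG had 350, 167 and 310 against 0, 0 and 2, and HBEGF differed by -2.16. The neuregulins, ligands of ERBB3 and ERBB4, went opposite ways, NRG1 lower with 1 read in all SCC15 libraries (a ratio of 823 with an interval of 147 to 32555) and NRG2 at least 6.14-fold higher. The ERK feedback list holds inhibitors of the kinase cascade below the receptor, and also transcription factors and a receptor that do not all dampen it. Its members were lower in 15 of 17 cases and higher in 1, with a median of -4.49 (-3.69 with bounds). DUSP6, an ERK phosphatase, stood at 8.28, 7.43 and 7.88 in OKF6 and at -0.65, -0.76 and 0.69 in SCC15 (-8.10 ± 0.40). ETV4 and ETV5 were at 3 reads or fewer in every SCC15 library, with ratios of 193 (52.9 to 1597) and 61.1 (30.7 to 142). PHLDA1 and FOSL1 differed by -6.91 and -7.21, and SPRY2, a feedback inhibitor, by -1.80 (adjusted p = 0.023, or between 0.056 and 0.073 without OKF6 replicate 2 or 3 or SCC15 replicate 1 or 2). The higher gene was the ephrin receptor EPHA4 (5.96). The OKF6 medium contained EGF and no such addition is stated for the SCC15 medium, so that line and medium cannot be told apart. SCC25, grown in the OKF6 medium with EGF, was higher than SCC15 for 14 of the 17 genes of the feedback list, and for 23.6% of all genes.

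Of 46 genes of the PI3K-AKT-mTOR core 11 were higher and 13 lower, with a median of 0.12, and these shares lie near those of all genes (26.9% higher and 23.4% lower). The kinase gene AKT1 was higher by 0.94. RPTOR, the mTORC1 scaffold, was higher by 0.84 ± 0.31 (adjusted p = 0.046), and leaving out any library other than OKF6 replicate 1 ended that call, with adjusted p between 0.064 and 0.15. DEPTOR, an inhibitor of mTOR, had 0 reads in each OKF6 library and 23, 16 and 19 in SCC15. Other named members were lower. PIK3R1, the p85 regulatory subunit, stood at 7.29, 6.51 and 6.05 in OKF6 and at 3.31, 3.71 and 2.87 in SCC15 (-3.32 ± 0.38), IRS1 differed by -3.64 ± 0.29, the phosphatase INPP4B by -4.49 ± 0.38 and PIK3CD by -1.98 ± 0.34. The mTORC1 inhibitor DDIT4 was lower (-3.24 ± 0.58), with SCC15 replicate 1 at 7.60 against 4.67 and 5.57 in the other two. RPS6 and EIF4EBP1, proteins that act downstream of mTORC1, did not pass the threshold.

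**Figure D4:**
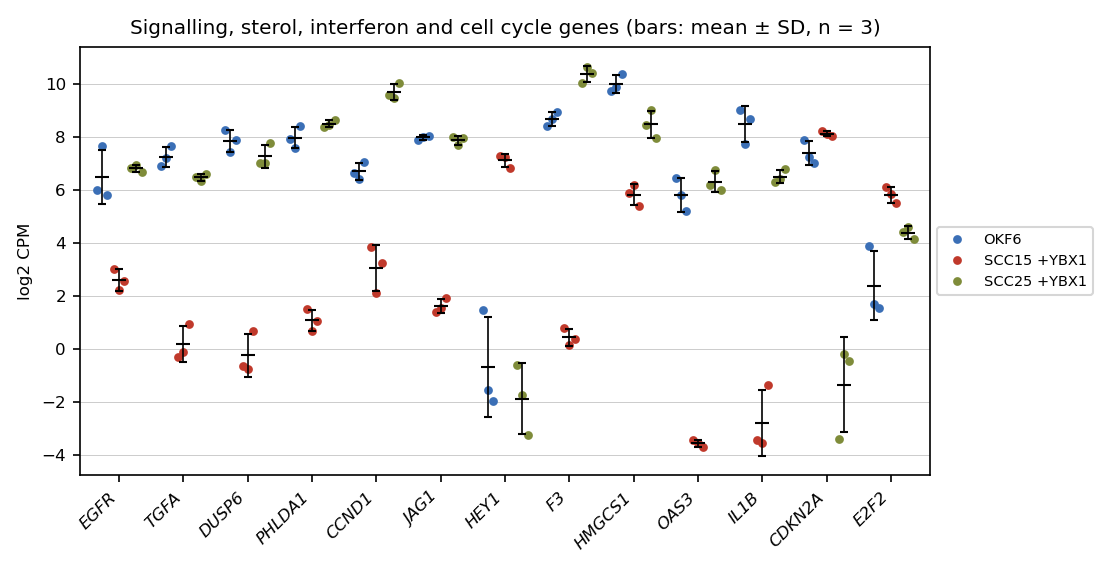
Levels (log2 CPM) of 13 signalling, sterol, interferon, cytokine and cell cycle genes in each library of OKF6, SCC15 +YBX1 and SCC25 +YBX1, with mean ± SD (n = 3). DUSP6, JAG1, F3, OAS3 and IL1B are low in SCC15 and high in both other lines, HEY1 is high in SCC15 and low in both, and CDKN2A is high in OKF6 and SCC15.

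In the TGF-beta pathway 10 of 40 genes were higher (25.0%) and 17 lower (42.5%), against 26.9% and 23.4% of all genes. The BMP ligands BMP4 and BMP7 had 1, 0 and 0 and 1, 0 and 2 reads in OKF6 and were higher in SCC15, with 137, 77 and 92 and 163, 209 and 252 reads. The inhibitory SMAD6 had 0, 0 and 1 against 82, 75 and 103, a ratio of 226 (40.2 to 8967). ID2, a BMP-induced inhibitor of helix-loop-helix factors, stood at 1.37, 0.31 and -1.25 in OKF6 and at 6.68, 5.42 and 5.47 in SCC15. The activin subunit INHBA (182, 1588 and 872 reads against 1, 2 and 2) and its antagonist follistatin, FST (-7.60 ± 0.35), were lower, and SMAD3 was lower (-1.70). Of 21 Notch pathway genes 7 were higher and 7 lower, shares near those of all genes (26.9% and 23.4%). The receptor NOTCH1 and the ligand JAG1 were lower, JAG1 from 7.91, 8.004 and 8.07 to 1.40, 1.56 and 1.92 (-6.37 ± 0.20, adjusted p = 1.7e-08). The target genes HEY1, HEY2, HEYL and HES4 were higher, HEY1 from 1.47, -1.56 and -1.98 to 7.31, 7.25 and 6.84 (7.82 ± 0.92), and HES1, another target, was lower (-1.21). YAP/TAZ target and partner genes were lower in 21 of 29 cases and higher in 4 (median -2.36). F3, tissue factor, differed by -8.27 ± 0.24, THBS1 by -10.48 ± 0.57 and CCN1 by -2.83 ± 0.28, while CCN2 did not pass the threshold (-0.13 ± 1.09). AMOT, a binding partner of YAP, had 0, 0 and 15 reads in OKF6 and 3535, 2875 and 2622 in SCC15 (10.69 ± 1.21).

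Interferon-stimulated genes, the antiviral programme that interferon receptors switch on, were lower in 36 of 46 cases and higher in 2, with a median of -4.24 (-3.62 with bounds). Of all genes 23.4% were lower and 26.9% higher. The promoters of this list are shown because most share the core of the interferon-stimulated response element. In the 300 bases around the gene start (250 before and 50 after, RefSeq, GRCh38.p14), the letters GAAA, any 2 bases and GAAA again, on either strand, were found in 24 of the 39 members with a promoter sequence (61.5%), and in 2.63% of the 10250 genes of the table that had one. Of these 24 genes 20 were lower and 1 higher, and of the 15 without the motif 11 were lower. OAS3 and PARP14 hold it and were lower, and HERC5 holds it and was higher. Capitals mark the motif, 5′ to 3′ on the strand of the gene, or its reverse complement, which reads TTTC at both ends.
OAS3 (chr12:112938224-112938523, plus strand): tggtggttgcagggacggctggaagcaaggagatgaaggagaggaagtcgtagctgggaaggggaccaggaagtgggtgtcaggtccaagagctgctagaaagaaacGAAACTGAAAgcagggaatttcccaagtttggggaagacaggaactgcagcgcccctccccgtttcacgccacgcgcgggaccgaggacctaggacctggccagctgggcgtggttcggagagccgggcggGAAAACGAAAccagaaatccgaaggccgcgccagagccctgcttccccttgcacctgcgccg
PARP14 (chr3:122680589-122680888, plus strand): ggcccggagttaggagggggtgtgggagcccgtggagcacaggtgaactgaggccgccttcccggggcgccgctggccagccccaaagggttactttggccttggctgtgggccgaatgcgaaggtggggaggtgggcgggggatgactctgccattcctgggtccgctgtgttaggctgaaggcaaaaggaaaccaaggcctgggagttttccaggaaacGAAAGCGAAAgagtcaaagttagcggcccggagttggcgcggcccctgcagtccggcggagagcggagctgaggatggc
HERC5 (chr4:88456869-88457168, plus strand): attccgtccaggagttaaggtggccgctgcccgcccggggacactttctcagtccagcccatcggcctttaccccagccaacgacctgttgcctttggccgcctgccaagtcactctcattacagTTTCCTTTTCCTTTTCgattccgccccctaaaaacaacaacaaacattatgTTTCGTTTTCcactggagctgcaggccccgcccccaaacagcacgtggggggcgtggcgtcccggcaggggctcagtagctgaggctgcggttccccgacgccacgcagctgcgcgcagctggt

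OAS3, a sensor of double-stranded RNA, stood at 6.47, 5.80 and 5.20 log2 CPM in OKF6 and had 0 reads in each SCC15 library, at least 110-fold lower. PARP14, an interferon-induced ADP-ribosyltransferase, had 328, 364 and 163 reads against 1, 0 and 0. HERC5, the ligase for the ubiquitin-like ISG15, was higher by 2.23, as was IFITM2 by 3.33. ISG15 itself kept a readable level, from 4.48, 4.53 and 4.23 to 2.77, 2.74 and 2.81 (-1.64 ± 0.34). IFI16, a DNA sensor, had 364, 445 and 453 reads in OKF6 and 5, 0 and 0 in SCC15. Against SCC25, 41 of the 46 genes were lower in SCC15 and 0 higher, where 23.6% of all genes were lower and 20.0% higher.

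Inflammatory cytokines and chemokines were lower in 25 of 27 cases and higher in 0, with a median of -5.79 (-3.91 with bounds). Over all genes 23.4% were lower and 26.9% were higher. IL1A and IL1B, stored or secreted by keratinocytes, had 2212, 556 and 1895 and 2754, 948 and 2449 reads in OKF6, and 1, 1 and 3 and 0, 0 and 2 in SCC15. The receptor antagonist IL1RN, with no read in SCC15, was at least 241-fold lower. The neutrophil attractant CXCL1 had 526, 209 and 253 reads in OKF6 and 3, 5 and 0 in SCC15, and the granulocyte growth factor CSF3 differed by -9.98 ± 0.67. Of 12 genes of MHC class I presentation 5 were lower (41.7%) and 1 higher (8.33%). The 6 called members made up a share near the 50.3% called over all genes. B2M, the invariant light chain, stood at 9.76, 9.06 and 9.03 in OKF6 and at 7.49, 7.70 and 7.91 in SCC15 (-1.58 ± 0.23), the peptide editor TAPBPL differed by -6.72 and the trimming peptidase ERAP1 by -2.47, while the chaperone CANX was higher by 1.24.

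For the junction genes the promoters were searched in the same way for the E-box CACCTG, the letters that ZEB and SNAI factors bind. Over the adherens junction, desmosome, tight junction and epithelial factor lists, 13 of 42 promoters held it on either strand (31.0%), against 18.3% of all. Within this pool the epithelial factor list held it in 2 of 12 (16.7%). Lists outside the pool lay on both sides of 18.3%. The box was in 15 of 30 squamous and 7 of 15 S100 promoters, but in 2 of 21 partial EMT and 5 of 59 ribosomal protein promoters. It was therefore not particular to junction genes. Over all genes it was in 19.4% of the lower and 18.7% of the higher ones. Of the 13 genes with it 11 were lower, and of the 29 without it 23 were lower. Motifs named for 3 other kinds of factor were searched in the same way, on either strand. The antioxidant element TGACNNNGC was found in 8 of 23 promoters of the NRF2 list (34.8%, against 15.0% of all), the AP-1 letters TGANTCA in 6 of 22 of the cytokine list (27.3%, against 4.61%), and the sterol element TCACNCCAC in 1 of 18 of the cholesterol list (5.56%, against 1.06%). Other lists held these letters at like shares. The antioxidant letters were in 5 of 12 tight junction and 10 of 33 S phase promoters. The AP-1 letters were in 9 of 30 squamous and 4 of 15 S100 promoters. Both were in 0 of 17 Notch promoters. The sterol letters were in 1 of 12 epithelial factor promoters. None was therefore particular to its list. The AP-1 and antioxidant letters can match the same bases, and a match is a description of letters and not a site. The promoter of DSP is shown as an example with a pair of such boxes (in capitals, here as the reverse complement CAGGTG), on the plus strand.
DSP (chr6:7541421-7541720): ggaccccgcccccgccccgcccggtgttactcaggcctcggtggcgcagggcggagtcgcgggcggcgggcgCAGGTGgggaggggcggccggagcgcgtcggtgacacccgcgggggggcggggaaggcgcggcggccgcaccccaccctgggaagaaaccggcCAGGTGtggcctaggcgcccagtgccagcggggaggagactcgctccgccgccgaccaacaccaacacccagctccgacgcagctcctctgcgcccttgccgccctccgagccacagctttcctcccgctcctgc

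Lipid synthesis genes were lower in SCC15. Of 25 cholesterol synthesis and uptake genes 19 were lower and 3 higher, with a median of -1.82, where 23.4% of all genes were lower and 26.9% higher. HMGCS1, an early enzyme of the pathway, stood at 9.74, 9.91 and 10.41 log2 CPM in OKF6 and at 5.91, 6.198 and 5.39 in SCC15 (-4.19 ± 0.30). SREBF2, the transcription factor of the pathway, did not pass the threshold (-0.31), though it did without OKF6 replicate 1 (-0.89, adjusted p = 0.036), and without OKF6 replicate 3 its difference was 0.11. Of 19 fatty acid synthesis genes 14 were lower and 1 higher. The desaturase SCD stood at 11.49, 11.11 and 10.93 in OKF6 and at 8.59, 8.17 and 7.93 in SCC15 (-2.95 ± 0.25), FASN differed by -1.58 and SREBF1 by -3.61. Against SCC25, which was grown in the medium of OKF6, 12 of the 25 cholesterol genes were lower in SCC15 and 2 higher. Over all genes 23.6% were lower and 20.0% higher in that comparison. The serum of the SCC15 medium cannot be told apart from the line.

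Of 23 serine synthesis and ATF4 genes 9 were higher (39.1%) and 6 lower (26.1%), against 26.9% and 23.4% of all genes. The first enzymes of serine synthesis were higher, PHGDH from 6.47, 4.49 and 4.60 to 8.42, 8.16 and 7.96 (2.99 ± 0.43) and PSAT1 by 1.68. The transporter genes SLC7A5 and SLC3A2, whose products form a heterodimer that imports large neutral amino acids, were lower (-3.68 and -2.60). Of 34 NRF2 targets and detoxification genes 19 were lower and 4 higher. NQO1, a quinone reductase, stood at 9.18, 7.64 and 8.02 in OKF6 and at 4.86, 5.20 and 5.25 in SCC15, and the metallothionein MT2A at 15.06, 14.13 and 14.44 against 6.98, 7.88 and 7.88. AKR1C1, AKR1C2 and AKR1C3 were also lower (-6.24, -6.48 and at least 21.7-fold), although up to 41.9% of the pieces of their transcript ends are shared between them, so the split of reads is uncertain. Of 35 glycolysis and hypoxia genes 15 were lower and 4 higher. The lactate exporter SLC16A3 had 658, 1034 and 1694 reads against 2, 2 and 2, LDHA differed by -1.44 ± 0.25, and ENO2, the neuronal enolase, was higher by 4.64 ± 1.31 (adjusted p = 0.013, or 0.056 without SCC15 replicate 1).

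Of 43 S phase genes 21 were higher, 2 lower and 20 not past the threshold (median 0.65), where 26.9% of all genes were higher and 23.4% lower. MCM2, of the replicative helicase, stood at 7.02, 6.79 and 6.50 in OKF6 and at 8.16, 8.41 and 8.33 in SCC15 (1.53 ± 0.18), and the uracil glycosylase UNG was higher by 1.74, but PCNA did not pass the threshold (-0.37). Of 51 G2 and mitosis genes 10 were higher and 6 lower (median 0.01). AURKB and CDC25C were higher by 2.12 and 2.28, and MKI67 and ANLN were lower (-0.96 and -1.72). Against SCC25, 20 of the 43 S phase genes were higher in SCC15 and 1 lower, where 20.0% of all genes were higher.

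Of 23 G1 phase regulators 8 were higher and 7 lower, where 26.9% of all genes were higher and 23.4% lower. The D cyclins CCND1 and CCND2 were lower, CCND1 from 6.65, 6.42 and 7.07 to 3.84, 2.10 and 3.24 (-3.65 ± 0.38), as was their partner CDK6 (-2.69). Cyclin E1, CCNE1, and the factors E2F1 and E2F2, which act after the D cyclins, were higher by 3.10 ± 0.33, 1.93 and 3.44 ± 0.53. CDKN2A, the gene of p16, stood at 7.91, 7.27 and 7.04 in OKF6 and at 8.25, 8.12 and 8.04 in SCC15, a difference that did not pass the threshold (0.73 ± 0.69), whereas SCC25 had a mean of -1.35 and differed from SCC15 by 9.49 (adjusted p = 1.6e-06). The neighbouring CDKN2B was lower than in OKF6 (-3.65). RB1, whose product p16 preserves in its active form, was lower (-1.36). CDKN1A, the CDK inhibitor p21, was also lower (-1.78).

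Of 75 cytosolic ribosomal protein genes 15 were higher and 6 lower, with a median of 0.27, and 54 did not pass the threshold. Both shares were below those of all genes (26.9% higher and 23.4% lower). RPL8 and RPS3 were higher by 1.57 ± 0.24 and 1.46 ± 0.28, and RPS28 was lower (-2.17 ± 0.42). RPL17, RPLP0 and RPS15 share between 31.4% and 95.3% of their transcript-end pieces with other loci, mostly pseudogenes, and their values are uncertain.

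HOX genes, the homeobox factors that set position along the body axis, were higher in 25 of 36 cases and lower in 0, with a median of 4.50 (2.55 with bounds), where 26.9% of all genes were higher. HOXA9 had 0, 0 and 2 reads in OKF6 and 463, 747 and 706 in SCC15, a ratio of 833 (230.4 to 6886), and HOXD13, HOXB13 and HOXA10, with no read in OKF6, were at least 49.9-fold, 37.2-fold and 37.3-fold higher. By cluster, 7 of 10 measured HOXA, 6 of 9 HOXB, 4 of 8 HOXC and 6 of 7 HOXD protein-coding genes were higher. The other members are the noncoding HOTAIR and HOXA-AS2, and reads of the latter cannot be told from those of genes it overlaps unless counting used strand. The 3′ members HOXA2, HOXA3, HOXB2, HOXB3 and HOXB4 had overlapping or neighbouring levels in both lines, none of them called. In SCC25 17 of the 36 genes were above OKF6 and 6 below, where 18.9% of all genes were above and 11.3% below. HOXD10 and HOXD11 did not pass the threshold between the cancer lines (-0.87 and -0.15), whereas HOXA9 and HOXD13 were higher in SCC15 by 2.96 and 3.77.

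**Figure D5:**
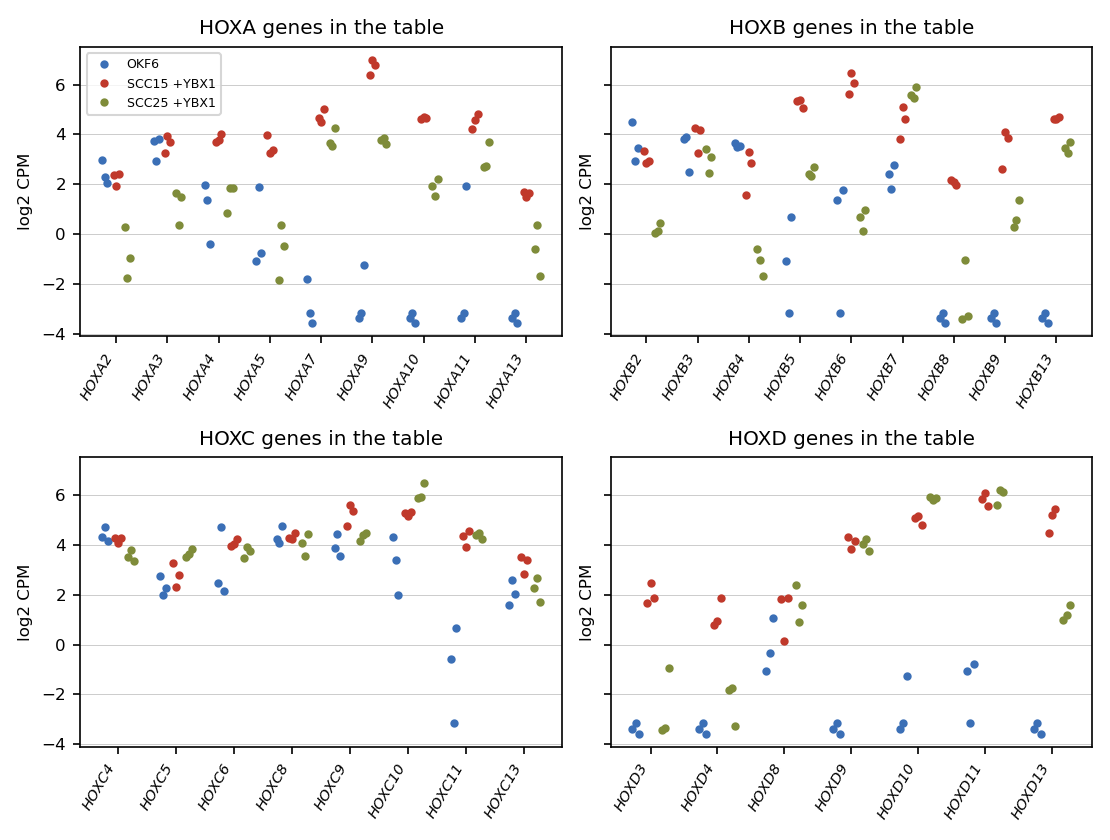
Level (log2 CPM) of measured HOX genes, ordered by number within its cluster, in every library of OKF6, SCC15 +YBX1 and SCC25 +YBX1. HOXA7 to HOXA13 and HOXD9 to HOXD13 are near the floor in most OKF6 libraries and above 1 in every SCC15 library, and the low-numbered HOXA and HOXB genes overlap or lie close between OKF6 and SCC15.

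Neural and neuroendocrine genes were higher in 18 of 24 cases and lower in 4, with a median of 4.28 (3.02 with bounds). Over all genes 26.9% were higher and 23.4% were lower. UCHL1, a neuronal ubiquitin hydrolase, had 0, 0 and 5 reads in OKF6 and 1572, 1918 and 2377 in SCC15 (10.55 ± 0.69). The neurofilament gene NEFL had 1, 0 and 1 reads against 180, 208 and 251, and the adhesion molecule NCAM1 2, 0 and 2 against 216, 138 and 159. NEFM and the related INA, with no read in OKF6, were at least 24.3-fold and 50.5-fold higher. In SCC25 UCHL1 and NEFL had means of 6.48 and 4.65 log2 CPM, and NEFM, INA and DPYSL5 lay at -2.81. Of 9 cancer-testis and related X-linked genes 7 were higher and 1 lower, beside the same shares of all genes. PRAME had 167, 269 and 261 reads in SCC15 against 0, 0 and 1, and BEX4 408, 620 and 451 against 2, 0 and 2. MAGEH1 was the lower one, with 42, 19 and 51 reads in OKF6 and 1, 0 and 0 in SCC15.

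Among 12 oncofetal RNA-binding and HMGA genes, 3 were higher (25.0%) and 4 lower (33.3%), against 26.9% and 23.4% of all genes. IGF2BP1, an mRNA-binding protein of the embryo, stood at -1.06, -3.15 and 0.13 in OKF6 and at 8.91, 8.57 and 8.43 in SCC15 (10.00 ± 0.64, adjusted p = 5.8e-07). LIN28B, which blocks maturation of let-7 microRNAs, had 40, 64 and 53 reads against 0, 0 and 0, at least 13.1-fold higher. The family member IGF2BP2 was lower (-1.52 ± 0.26), as was PEG10 (-3.59). HMGA2, an architectural chromatin protein, was lower by a small amount (-0.72, adjusted p = 0.036), a call that ended without OKF6 replicate 1 or SCC15 replicate 2 or 3 (adjusted p between 0.075 and 0.12).

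Among genes above the median level, the 12 with the largest negative difference were KRT6A, FGFBP1, KRT5, SPRR1B, PKP1, KRT19, SLPI, KRT6B, S100A6, TGFBI, CSTA and S100A8. FGFBP1, a secreted carrier of fibroblast growth factors, had 14823, 7594 and 16521 reads in OKF6 and 2, 0 and 17 in SCC15 (-12.31 ± 0.93). SLPI, an antiprotease of mucosal secretions, went from 3420, 4258 and 8355 reads to 4, 0 and 3. The 12 with the largest positive difference were EEF1A2, CKB, CENPV, APOC1, CBS, FOXRED2, MAPK8IP2, CAMK1, CHCHD10, RFLNB, ADGRL1 and HES4. EEF1A2, the translation elongation factor of muscle and neurons, stood at -1.06, 0.94 and 1.56 in OKF6 and at 8.48, 7.99 and 8.45 in SCC15 (7.83 ± 0.58). CKB, brain-type creatine kinase, went from 4.25, 5.51 and 5.75 to 12.48, 11.84 and 11.92 (6.91 ± 0.38), and the apolipoprotein APOC1 from 1.57, 0.94 and 0.96 to 6.62, 7.58 and 7.72. CHCHD10 and RFLNB did not pass the threshold between SCC15 and SCC25, and the other 10 were higher in SCC15 than in SCC25. CBS, of the transsulfuration pathway, was higher by 6.01 ± 0.24, but its transcript end lies in full within another annotated locus.

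Presence and absence of reads were also counted without a fit. There were 202 genes (1.55%) with at most 3 reads in every SCC15 library and at least 50 in every OKF6 library, and 131 of them also had at least 50 reads in every SCC25 library. In the other direction there were 270 genes (2.08%), of which 107 had at most 3 reads in every SCC25 library and 33 at least 50. These limits were chosen after values were seen. The traces of keratinocyte genes were not equal between the SCC15 libraries. Of the 37 abundant ones, 7, 14 and 0 had no read in SCC15 replicates 1, 2 and 3.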

How the data were processed

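RNA of 5 groups of 3 libraries was measured by QuantSeq 3′ FWD sequencing. Upstream, the authors used Cutadapt for trimming, HISAT2 for alignment (hg38), featureCounts for read counts per gene, and limma for filtering and normalisation. The deposited values are log2 CPM, in which 0.5 was added to the reads before scaling to a normalised library size. Since 1 read is worth a fixed CPM in each library, whole reads were recovered for 100% of values (within 0.01 read). Reads per library were 4075290 to 6118501 in the 6 libraries compared. Where every library of a line had 0 reads of a gene, the fold is a lower bound against a floor of 3 reads per library, 0.546 CPM in SCC15 and 0.677 CPM in OKF6. Ratios of pooled CPM have exact (Clopper-Pearson) 95% intervals. Bounds and intervals cover counting error only.

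The 9 libraries of the cell line table were fitted with limma 3.58.1 in R 4.3.3 (eBayes with a variance trend, two-sided, Benjamini-Hochberg over 12995 genes, threshold 0.05), with groups from the sample labels. On simulated data for SCC15 against OKF6 over 12995 genes, 49 of 100 genes changed by 1 log2 unit were called, 100 of 100 changed by 2, and 5 of 12795 unchanged. The simulation gave all genes and libraries the same dispersion and changed only 200 genes. The real libraries were unequal in spread (SD of deviations 0.581 in OKF6 replicate 1 and 0.176 in SCC25 replicate 2). These counts check the procedure and do not give its error rates in the real comparison. Alternatives were the 6 libraries alone, a replicate block, equal medians, quantile normalisation, no trend, robust eBayes, array weights, genes above the first quartile, 2 added reads, voom on recovered reads, a threshold of 0.01, and each of the 6 libraries left out. Members and gene lists, written from memory, were chosen with earlier results of these data known. Named genes are YBX1, anchor genes of each list, at most 6 further called members per list with the largest difference, and the 12 genes with the largest difference in each direction above the median level and without overlap. Promoters come from RefSeq (GRCh38.p14), and shared transcript ends were sought as exact 75-base pieces of the last 500 bases, every 5 bases, in GENCODE transcripts. Of the genes, 275 have no symbol. Some genes are not reported here.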

Additional observations from a re-analysis of the deposited data

How the results depend on the processing

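The number of genes called between SCC15 and OKF6 was 6534 and lay between 5492 and 7434 when each library was left out in turn, with 2878 to 4093 higher and 2614 to 3341 lower. The lists together had 642 called members, 584 to 683 on leaving out a library. All 6534 genes kept their direction whichever of the 6 libraries was left out. Voom on the recovered reads called 6704 genes. The main fit took its spread from all 9 libraries of the cell line table, SCC25 included. With only the 6 libraries compared, 5536 genes were called, 2942 higher and 2594 lower, and 5525 of the 6534 main calls were among them. With genes below the first quartile of expression left out, 2118 were higher and 2445 lower, a higher share of 46.4% of calls in place of 53.5%. In that setting 40 named genes were higher in SCC15 than in SCC25 in place of 70, and 164 were lower in place of 189. The quartile was taken on the mean level over the 9 libraries of the fit, and the cause of the uneven fall was not tested. Equal library medians moved the median difference of all genes from 0.10 to 0.26, with 3981 higher and 2662 lower. The replicate numbers did not pair the libraries (correlations of deviations 0.131, -0.124 and 0.26 over 6497 genes), and the replicate block gave 6401 calls. No gene that was called and is named in the text changed direction. Of those not called, with medians set equal CCN2 turned to 0.032 and S100A4 to 0.14, and S100A4 stood at 0.0135 with voom, where the cause was not tested. On leaving out a library CCN2 lay between -1.23 and 0.46, S100A4 between -0.99 and 0.81, HOXA2 between -0.38 and 0.074, HOXA3 between -0.15 and 0.33 and SREBF2 between -0.89 and 0.11. At this depth a gene at 0 reads may still have held up to 3 reads, so that folds of such genes are bounds.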

Other observations

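The median difference varied between the chromosomes. Of 315 measured genes on chromosome 22, SCC15 was above OKF6 by a call for 149 (47.3%) and below it for 51 (16.2%), and the median difference was 0.81 log2 units, while 26.9% of all genes were higher and 23.4% lower. In SCC25 the median of the chromosome 22 genes against OKF6 was 0.13. Chromosomes 18 and 20 lay at the other end. On chromosome 18, which holds the desmosomal cadherin cluster, 80 of 186 genes (43.0%) were lower and 35 higher, with a median of -0.60, and on chromosome 20 132 of 352 genes (37.5%) were lower and 48 higher, with a median of -0.43. The medians in SCC25 against OKF6 were -0.32 and -0.08. Chromosome 19 (0.48) and chromosome 16 (0.39) followed chromosome 22, and the remaining autosomes had medians between -0.18 and 0.38. Genes of a chromosome are not independent replicates, DNA copy number was not measured here, and these values were looked at after the others were known.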
